A study of Homo sapiens with 8 samples.

Results

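The expression of 9 genes of growth factor signaling was followed across the 4 treatment groups of the A549 transcriptome. The genes were the EGF family ligands EREG (epiregulin), AREG (amphiregulin), HBEGF (heparin-binding EGF-like growth factor) and TGFA (transforming growth factor alpha), and the receptor tyrosine kinases EGFR, ERBB2, ERBB3, MET and AXL. They were chosen by name, as the rows of the count table whose Ensembl identifier maps to these symbols. All 9 of 9 had counts, among 26065 genes with at least 1 count and 60664 genes in the table. All 9 also passed the expression filter, which left 15066 genes for testing.

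The ligands of the EGF family are made as membrane proteins, and cleavage at the cell surface releases the active growth factor. EREG, AREG, HBEGF and TGFA bind EGFR, and HBEGF and EREG also bind ERBB4. Ligand binding lets ERBB receptors pair with each other, which activates their kinase domains and signals through RAS and PI3K. ERBB2 has no known ligand of its own and serves as a partner of the others, while ERBB3 binds neuregulins and has a weak kinase, so that it signals mainly within such pairs. MET is the receptor of hepatocyte growth factor and AXL that of GAS6. EGFR, MET and AXL are well known in lung adenocarcinoma, where EGFR and MET are drug targets and AXL is known from cells that tolerate EGFR inhibitors.

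A549 is an established human lung adenocarcinoma line, and each group had 2 libraries of stranded mRNA. Cells were left untreated, received IFN-γ or AX-0085 (written AX0085 in the labels) alone, or received IFN-γ and then AX-0085. IFN-γ was given at 20 ng (the labels name no volume), AX-0085 was added to 0.5 µM at 24 h, and the cells were harvested 24 h later. The labels give this protocol alike for all 8 libraries and do not name the harvest time of each group. The length of exposure to IFN-γ alone can thus not be told from them. If it was shorter than with both agents, time and the addition of AX-0085 could not be told apart. All groups are the same cell line, the labels do not tell whether the 2 libraries of a group came from separate cultures, and p-values therefore measure only the spread between these libraries. AX-0085 is a small-molecule kinase inhibitor known by this code.

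The total counts of the libraries were between 20672828 and 29978251, and 3 counts in a library, taken as the smallest level it can show, corresponded to between 0.100 and 0.145 CPM. CPM are counts scaled to the size of a library, here with TMM factors. The limit of 3 counts above and the summed markers below were scaled by total counts alone, without TMM factors. Each value is a share of the RNA in a library. A fall of a gene's RNA per cell can thus not be told apart from a smaller number of cells that make it. The libraries of a group differed by more than counting noise, by a chi-square of 9.50 to 31.6 per degree of freedom. CD274 and GBP1, known targets of IFN-γ, were both called higher with IFN-γ and lower on addition of AX-0085 to it. All 8 of 8 fixed epithelial and A549 markers had counts, CDKN2A, which is deleted in A549, had 0, and markers of immune and endothelial cells had at most 4 and 6 counts. Of the CDKN2A exon bases 100% lie within the span of another gene, as for SOCS5 and INSRR, which also had 0 counts. How reads at overlapping genes were counted is not given, so the CDKN2A value cannot serve as a check of the cell line. Of the fibroblast markers, COL1A1 reached 267 counts and COL1A2 was at 0. The sum of these 8 epithelial and A549 markers moved with the groups. It was 23270 to 23620 CPM in untreated cells, 14460 in each library with IFN-γ, 21850 to 22680 with AX-0085 and 18020 to 18950 with both. Single markers did not all follow the sum. Against untreated cells, 7 were lower and 1 higher with IFN-γ, and 6 were lower and 2 higher with both agents. The mitochondrial share of the counts also moved with the groups. It was between 1.71% and 1.82% with IFN-γ and between 2.72% and 5.73% in the other groups. The part of the marker and mitochondrial shifts in the changes described here was not tested.

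The promoters of the 3 ligands with the largest changes on addition of AX-0085 to IFN-γ are shown. EREG and AREG are neighbours on chromosome 4, both on the plus strand, with 56386 bases between the end of EREG and the start of AREG. Each line gives the 250 bases before the transcription start in the RefSeq annotation of GRCh38.p14, 5′ to 3′ on the strand of the gene, with matches to the motifs searched in capitals. The windows are chr4:74364895-74365144 on the plus strand for EREG, chr4:74444886-74445135 on the plus strand for AREG, and chr5:140346604-140346853 on the minus strand for HBEGF.
EREG: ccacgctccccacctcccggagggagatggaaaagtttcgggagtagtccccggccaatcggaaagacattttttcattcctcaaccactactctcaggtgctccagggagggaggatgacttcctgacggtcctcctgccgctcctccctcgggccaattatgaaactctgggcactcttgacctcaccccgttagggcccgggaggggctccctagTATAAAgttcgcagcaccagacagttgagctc
AREG: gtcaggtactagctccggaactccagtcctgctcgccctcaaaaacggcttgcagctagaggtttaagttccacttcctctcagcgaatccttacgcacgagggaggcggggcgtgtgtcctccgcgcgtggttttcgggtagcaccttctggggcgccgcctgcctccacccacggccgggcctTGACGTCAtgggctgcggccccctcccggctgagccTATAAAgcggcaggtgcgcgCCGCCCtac
HBEGF: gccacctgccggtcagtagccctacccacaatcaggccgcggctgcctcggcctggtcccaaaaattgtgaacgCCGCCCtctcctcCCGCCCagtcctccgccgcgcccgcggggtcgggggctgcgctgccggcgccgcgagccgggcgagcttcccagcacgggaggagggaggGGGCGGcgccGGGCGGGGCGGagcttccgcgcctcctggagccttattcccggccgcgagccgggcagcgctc

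The motifs searched, on both strands, included TGACGTCA (the CRE site of CREB family factors), TGANTCA (a pattern wider than the AP-1 site) and TTCNNNGAA (the GAS site of interferon signaling). The others were the core of the ISRE site bound by interferon regulatory factors, GGGCGG (the GC box) and TATAAA (the TATA box). Of all these motifs, the EREG window held only TATAAA, at -32 to -27 from the start. The AREG window held TGACGTCA at -65 to -58, TATAAA at -29 to -24 and the GC box, on the opposite strand, at -9 to -4. The HBEGF window held 5 matches to the GC box, of which the 2 nearest to the start overlap by 1 base, and no other match. For comparison, TGACGTCA was found in 1.65% of the 35116 RefSeq windows of the same length, TATAAA in 10.7% and GGGCGG in 42.6%. Among the 8 genes matched to a window (ERBB3 was not matched), none held TTCNNNGAA, present in 6.57% of all windows. TGANTCA was found in 6.57% of windows as well. It was present in the only ERBB2 window as TGATTCA, and in 2 copies at an alternative start of EGFR, as TGAGTCA and TGACTCA. The ERBB2 window lies within the span of PGAP3 on the other strand, and whether A549 uses that start was not tested. The AP-1 site has C or G at the open position, which the ERBB2 match lacks. The ISRE core, found in 3.02%, was present only at an alternative start of AXL. These are matches of letters, and factor binding was not measured.

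**Figure D1:**
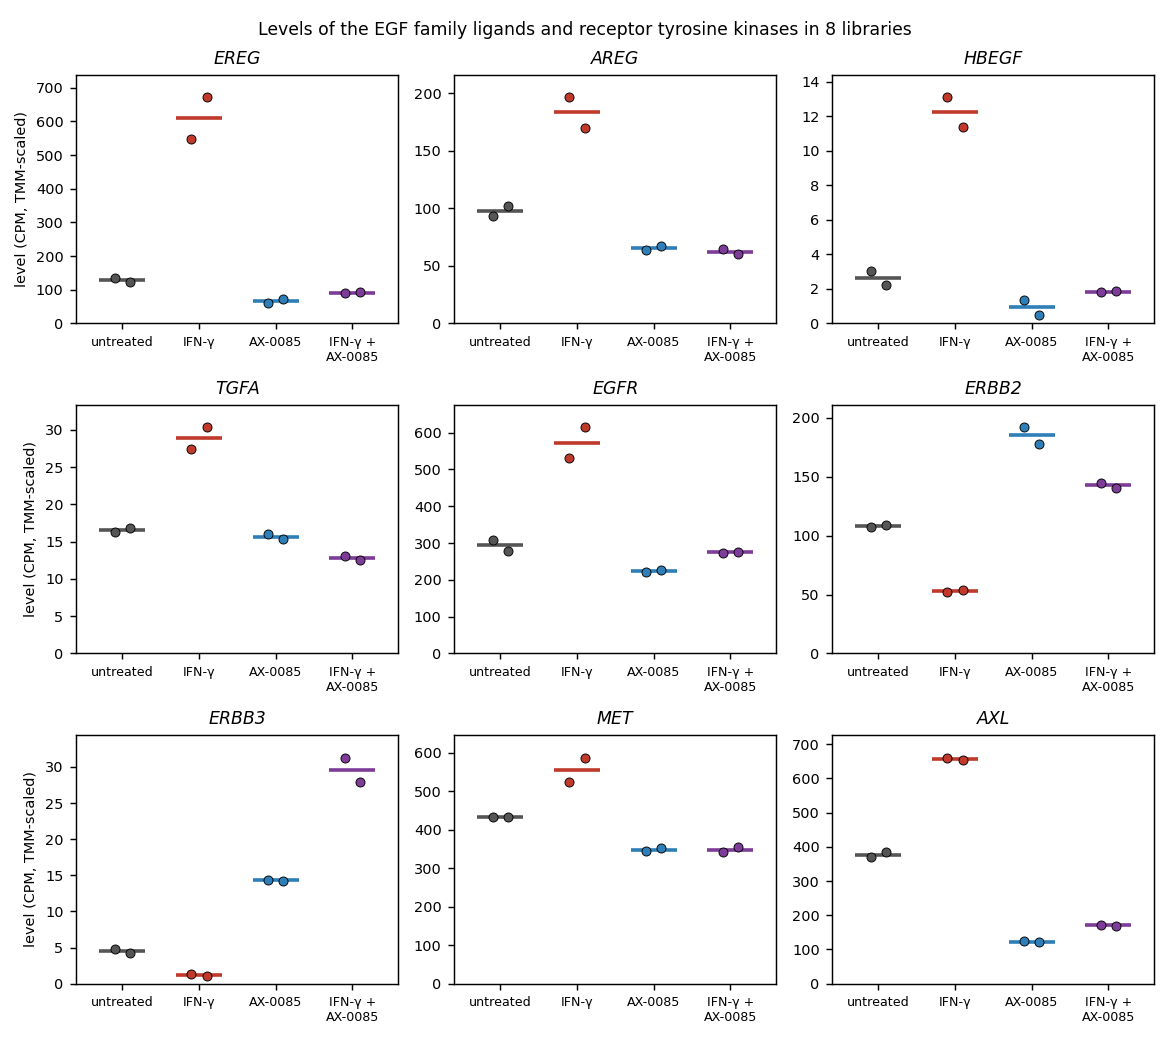
Levels of the 9 genes in the 8 libraries. Each panel shows 1 gene, with CPM on a linear axis that starts at 0, each point 1 library and each line the mean of a group of 2. The 4 ligands, EGFR, MET and AXL were highest with IFN-γ (EREG at 548.9 and 672 CPM), whereas ERBB2 and ERBB3 were lowest there and higher in each group with AX-0085 than in untreated cells.

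EREG (ENSG00000124882, chromosome 4, 74365145 to 74388749 on GRCh38, plus strand) had the widest range of the ligands in CPM. Its level was 133.5 and 124 CPM in the untreated libraries, 548.9 and 672 with IFN-γ, 61.7 and 71.3 with AX-0085, and 90.0 and 92.4 with both. No libraries of different groups overlapped, and with AX-0085 added to IFN-γ the level lay below that of untreated cells. IFN-γ raised EREG 4.75-fold (log2 fold change 2.25 ± 0.09 SE, adjusted p = 2.24e-10), and addition of AX-0085 to IFN-γ lowered it 6.70-fold (-2.74 ± 0.10, adjusted p = 6.52e-11). Adjusted p-values here and below are from edgeR's quasi-likelihood test over 15066 genes, and a change is called when it exceeds 2-fold at an adjusted p under 0.05. AX-0085 alone gave a 1.93-fold lower level (-0.95 ± 0.09, adjusted p = 2.54e-06), which stayed within the 2-fold limit but passed it without the second untreated library (-1.01) or the second AX-0085 library (-1.06).

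AREG (ENSG00000109321, chromosome 4, 74445136 to 74455005, plus strand), a ligand of EGFR alone, was likewise highest with IFN-γ and had a narrower range. It was at 93.0 and 102 CPM in untreated cells, 196.5 and 170.1 with IFN-γ, 63.9 and 67.1 with AX-0085, and 64.2 and 60.4 with both. The IFN-γ libraries stood above all others, and the libraries with AX-0085 overlapped those with both. With IFN-γ the level was 1.88-fold higher (0.91 ± 0.08, adjusted p = 1.94e-07) and was called only without the second IFN-γ library (1.06), while the fall on addition of AX-0085 to IFN-γ was 2.94-fold (-1.55 ± 0.08, adjusted p = 1.84e-09). Per kb of exon, EREG stood at 0.413 and 0.348 of AREG in the untreated libraries, and at 0.803 and 1.14 of it with IFN-γ. With AX-0085 this ratio was 0.277 and 0.306, and with both 0.403 and 0.440.

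HBEGF (ENSG00000113070, chromosome 5, 140332843 to 140346603, minus strand) was the least abundant ligand. Its counts were 92 and 54 in the untreated libraries (3.04 and 2.20 CPM), 248 and 283 with IFN-γ (13.1 and 11.4 CPM), 34 and 13 with AX-0085 (1.35 and 0.489 CPM), and 56 and 42 with both (1.79 and 1.89 CPM). No groups overlapped, but the ratio between the 2 libraries was wider with AX-0085 alone than in any other group. HBEGF rose 4.59-fold with IFN-γ (2.20 ± 0.22, adjusted p = 9.88e-07) and fell 6.64-fold on addition of AX-0085 to IFN-γ (-2.73 ± 0.23, adjusted p = 2.83e-07). AX-0085 alone lowered it 2.90-fold (-1.54 ± 0.32, adjusted p = 0.00136). Without the second AX-0085 library this change was -0.97 and the call was lost, and without the first it was -2.43.

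TGFA (ENSG00000163235, chromosome 2, 70447284 to 70554193, minus strand), a ligand of EGFR long known from tumor cells, was at 16.2 and 16.8 CPM in untreated cells, 27.4 and 30.4 with IFN-γ, 16.0 and 15.4 with AX-0085, and 13.1 and 12.6 with both. The untreated and AX-0085 libraries nearly touched, with the lowest of the former 1.02 times the highest of the latter. IFN-γ gave a 1.75-fold higher level (0.81 ± 0.08, adjusted p = 1.54e-06), and AX-0085 added to IFN-γ lowered it 2.25-fold (-1.17 ± 0.09, adjusted p = 7.13e-08). For AX-0085 alone the log2 fold change was -0.07, with a 95% confidence interval of -0.26 to 0.12 (adjusted p = 0.510).

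EGFR (ENSG00000146648, chromosome 7, 55019017 to 55211628, plus strand), the receptor of all 4 ligands, was at 307.5 and 279.5 CPM in untreated cells and 529.7 and 614 after IFN-γ. It was at 222 and 226.5 CPM with AX-0085 and 273 and 277 with both. The libraries with both agents lay just below the untreated ones. IFN-γ gave a 1.95-fold higher level (0.96 ± 0.07, adjusted p = 7.98e-08), short of a call, and AX-0085 added to IFN-γ lowered EGFR 2.08-fold (-1.06 ± 0.07, adjusted p = 4.11e-08). Both values lie close to the 2-fold limit: with size factors of the RLE kind the first was 1.01 and called, as it was without the first untreated library (1.08), the first IFN-γ library (1.08) or the first library with both (1.01). With scaling by library size alone the second was -0.94 and not called, as without the second IFN-γ library (-0.95).

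ERBB2 (ENSG00000141736, chromosome 17, 39687914 to 39730426, plus strand) moved against EGFR. It was at 107 and 109 CPM in untreated cells, 52.5 and 54.0 with IFN-γ, 192 and 178 with AX-0085, and 145 and 141 with both. The 4 groups did not overlap, and both groups with AX-0085 stood above untreated cells. ERBB2 fell 2.03-fold with IFN-γ (-1.02 ± 0.06, adjusted p = 6.38e-09), and it rose 2.68-fold on addition of AX-0085 to IFN-γ (1.42 ± 0.06, adjusted p = 3.58e-10). Per kb of exon, ERBB2 stood at 0.539 and 0.603 of EGFR in the untreated libraries, at 0.153 and 0.136 with IFN-γ, at 1.33 and 1.22 with AX-0085 and at 0.819 and 0.787 with both. The call with IFN-γ sits at the 2-fold limit. It was lost with DESeq2, with RLE size factors (-0.98) and with only the groups compared. It was also lost without the first untreated library (-0.99), either IFN-γ library (-0.99 and -0.997) or the first library with both (-0.98). With the lengths of all annotated exons (10321 bases for ERBB2 and 15941 for EGFR), ERBB2 exceeded EGFR only with AX-0085 alone. These lengths include exons that A549 may not use, and other lengths could change which gene stands higher. Exons of the opposite-strand genes MIEN1 and PGAP3 share 6.93% of the annotated exon bases of ERBB2, and the strand setting of the counting is not given in the sources used here.

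ERBB3 (ENSG00000065361, chromosome 12, 56076799 to 56103505, plus strand), the neuregulin receptor, had the widest range of the 9 genes on the log2 scale. Its counts were 147 and 104 in the untreated libraries (4.86 and 4.24 CPM), 25 and 26 with IFN-γ (1.32 and 1.05 CPM), 362 and 377 with AX-0085 (14.4 and 14.2 CPM), and 979 and 620 with both (31.3 and 27.9 CPM). The groups were far apart, and the highest level was reached with both agents, not with AX-0085 alone. ERBB3 fell 3.91-fold with IFN-γ (-1.97 ± 0.19, adjusted p = 6.60e-07) and rose 25.3-fold on addition of AX-0085 to IFN-γ (4.66 ± 0.15, adjusted p = 2.67e-11). That rise was the 95th highest log2 fold change of the 15066 genes tested. It rose 3.13-fold with AX-0085 alone (1.64 ± 0.12, adjusted p = 1.29e-07), and stood 6.48-fold above untreated cells with both (2.696 ± 0.11, adjusted p = 7.05e-10).

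MET (ENSG00000105976, chromosome 7, 116672196 to 116798377, plus strand) had the narrowest range of the 9 genes on the log2 scale. It was at 433 and 434 CPM in untreated cells, 523.5 and 588 with IFN-γ, 345 and 352 with AX-0085, and 342 and 355 with both. The 2 groups with AX-0085 overlapped, with means of 348 and 348.5 CPM. None of its changes was called: it was 1.28-fold higher with IFN-γ (0.36 ± 0.06, adjusted p = 0.000231) and 1.59-fold lower on addition of AX-0085 to IFN-γ (-0.67 ± 0.06, adjusted p = 8.48e-07).

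AXL (ENSG00000167601, chromosome 19, 41219223 to 41261766, plus strand), the GAS6 receptor, was the most abundant of the 9 genes per length in untreated and in IFN-γ-treated cells. It was at 370.3 and 384 CPM in untreated cells, 661 and 655 with IFN-γ, 125 and 120.4 with AX-0085, and 172 and 168.5 with both. The groups did not overlap, and both groups with AX-0085 lay well below untreated cells. AX-0085 lowered AXL 3.07-fold alone (-1.62 ± 0.06, adjusted p = 6.92e-10) and 3.86-fold in the presence of IFN-γ (-1.95 ± 0.06, adjusted p = 1.33e-11). IFN-γ gave a 1.74-fold higher level (0.80 ± 0.05, adjusted p = 2.67e-08), which was not called.

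Considered as a group, 2 of the 9 genes (EREG and HBEGF) were called higher and 2 (ERBB2 and ERBB3) lower with IFN-γ. Of all genes tested, 27.5% were called in this comparison, 10.3% higher and 17.2% lower, and 4 calls among 9 genes are too few to set the group apart from that background. By the adjusted p alone, 7 were higher and 2 lower, where 68.1% of all genes passed in either direction, 32.1% higher and 36.0% lower. The median log2 fold change of the 9 genes was 0.81, beside -0.06 over all genes. The 4 ligands were all higher by the adjusted p, with a median of 1.55.

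On addition of AX-0085 to IFN-γ, 8 of the 9 genes were called, with MET as the exception. EREG, AREG, HBEGF, TGFA, EGFR and AXL were lower, and ERBB2 and ERBB3 higher. In this comparison 24.8% of all genes were called, 16.5% higher and 8.28% lower. By the adjusted p alone MET was lower as well, so that 7 genes were lower and 2 higher, where 66.5% of all genes passed, 33.7% higher and 32.8% lower. The median log2 fold change was -1.17 for the 9 genes and 0.03 over all genes. EREG was the 163rd and HBEGF the 166th lowest of the 15066 genes. The comparison shares its IFN-γ libraries with the one of IFN-γ against untreated cells, so that opposite signs in the 2 comparisons are not independent of each other.

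AX-0085 alone changed fewer of the genes. HBEGF and AXL were called lower and ERBB3 higher, and 12.0% of all genes were called in this comparison, 6.41% higher and 5.62% lower. AXL was the 274th lowest, HBEGF the 328th lowest and ERBB3 the 327th highest of the genes tested. By the adjusted p alone, EREG, AREG, EGFR and MET were also lower and ERBB2 also higher (1.71-fold, 0.77 ± 0.06, adjusted p = 1.71e-07), while 53.3% of all genes passed, 26.7% higher and 26.6% lower. The exception was TGFA.

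Compared with untreated cells, cells treated with both agents differed by a call in AXL (2.22-fold lower, -1.15 ± 0.06, adjusted p = 2.69e-09) and in ERBB3, where 14.7% of all genes were called, 7.51% higher and 7.23% lower. EREG, AREG, TGFA and MET were between 1.24-fold and 1.57-fold lower and ERBB2 was 1.32-fold higher, each with an adjusted p under 0.05, as had 56.9% of all genes, 28.1% higher and 28.8% lower. For HBEGF the log2 fold change was -0.53 with a 95% confidence interval of -1.14 to 0.07 (adjusted p = 0.121). For EGFR it was -0.10 with an interval of -0.25 to 0.06 (adjusted p = 0.284), and it turned to 0.016 (adjusted p = 0.890) without the first untreated library.

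In each of these 4 comparisons the libraries of the 2 groups did not overlap for any of the 9 genes. This was common, as it held for 81.1% of all genes with IFN-γ, 82.7% on addition of AX-0085 to IFN-γ, 76.2% with AX-0085 alone and 79.1% with both.

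**Figure D2:**
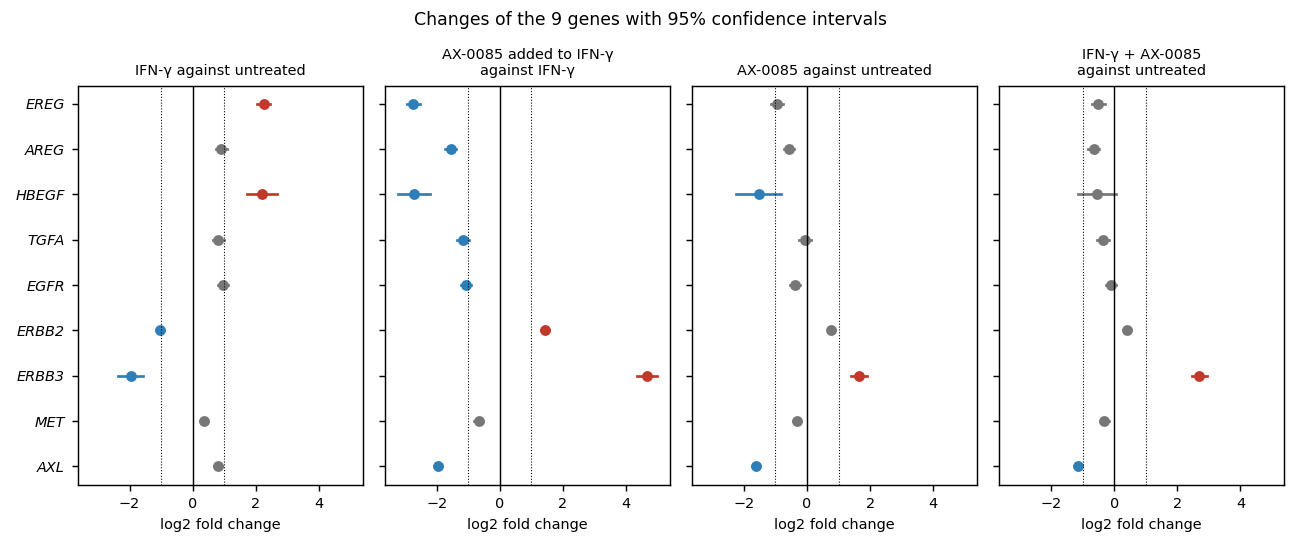
Log2 fold changes of the 9 genes in 4 comparisons, with 95% confidence intervals from edgeR. Dotted lines mark a 2-fold change, red and blue points are called higher and lower, and grey points are not called; on addition of AX-0085 to IFN-γ all genes except MET were called, up to 4.66 for ERBB3.

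The response to AX-0085 in the presence of IFN-γ was compared with that in its absence through the interaction term, which is the log2 change by AX-0085 with IFN-γ minus that without. For EREG it was -1.79 ± 0.13 (adjusted p = 2.32e-07), that is, a fall of 2.74 with IFN-γ and of 0.95 without. For TGFA it was -1.10 ± 0.12 (adjusted p = 9.09e-06), a call that was lost with scaling by library size alone (-0.98), and for HBEGF -1.19 ± 0.43 (adjusted p = 0.0344). For ERBB3 it was 3.02 ± 0.21 (adjusted p = 1.31e-07), from rises of 4.66 and 1.64. These 4 were called, 3 lower and 1 higher, where 18.6% of all genes were called, 12.1% higher and 6.46% lower. The HBEGF term rests on few counts and was -0.31 without the first AX-0085 library. Its call was also lost with scaling by library size alone. The same held without the second untreated library, the first IFN-γ library or either library with both. The AREG term (-0.98, adjusted p = 9.08e-06) was called without the second untreated (-1.05), the first AX-0085 (-1.01), the second IFN-γ (-1.10) or the first library with both (-1.04). The other 5 genes had smaller terms that passed the adjusted p alone, as did 50.3% of all genes, 26.7% higher and 23.6% lower: -0.98 for AREG, -0.67 for EGFR, 0.65 for ERBB2, -0.36 for MET and -0.33 for AXL. With scaling by library size alone the adjusted p was 0.0670 for MET and 0.0522 for AXL. For AXL, AX-0085 thus gave log2 changes of -1.95 with and -1.62 without IFN-γ.

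**Figure D3:**
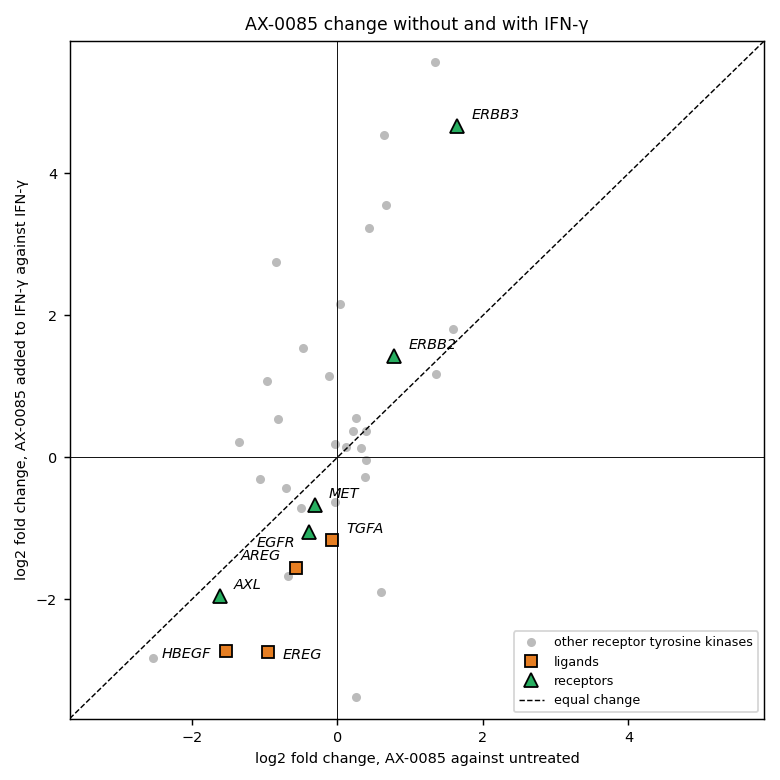
Log2 fold change by AX-0085 without IFN-γ (horizontal axis) and when added to IFN-γ (vertical axis). Orange squares are the 4 ligands, green triangles the 5 receptors, grey points the 29 other receptor tyrosine kinases tested, and the dashed line marks equal change; ERBB3 lies at 1.64 and 4.66, far above the line, and AXL at -1.62 and -1.95, close to it.

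Levels can be compared between genes only per length, and CPM were divided by the kb of all annotated exons of a gene in GENCODE 44 (from 1642 bases for AREG to 15941 for EGFR), which includes exons that A549 may not use. In untreated cells AXL led with 73.5 CPM per kb, followed by MET at 59.98 and AREG at 59.5, which did not differ beyond the spread of their libraries. EREG stood at 22.5, EGFR at 18.4, ERBB2 at 10.5, TGFA at 3.36, HBEGF at 0.877 and ERBB3 at 0.389 CPM per kb. AXL was thus above 96.8% of the 15025 tested genes with an annotated length, and ERBB3 above 19.8%.

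With IFN-γ the order was AXL at 128 CPM per kb, AREG at 112, EREG at 107, MET at 76.9, EGFR at 35.9, TGFA at 5.87, ERBB2 at 5.16, HBEGF at 4.09 and ERBB3 at 0.101. AREG and EREG did not differ beyond the spread of their libraries. With AX-0085 alone MET led at 48.2, followed by AREG at 39.9, AXL at 23.9, ERBB2 at 17.9, EGFR at 14.1, EREG at 11.6, TGFA at 3.19, ERBB3 at 1.22 and HBEGF at 0.308. ERBB3 thus stood above HBEGF in this group and below it in untreated and IFN-γ-treated cells. With both agents the order was MET at 48.2, AREG at 37.9, AXL at 33.2, EGFR at 17.2, EREG at 16.0, ERBB2 at 13.8, TGFA at 2.62, ERBB3 at 2.53 and HBEGF at 0.615. TGFA and ERBB3 overlapped there.

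**Figure D4:**
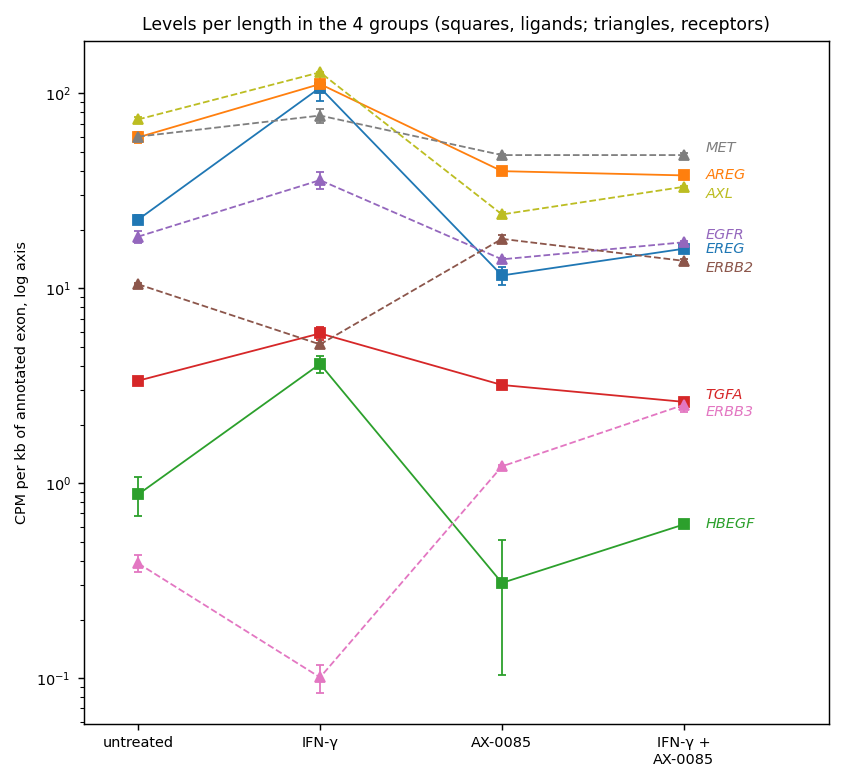
CPM per kb of annotated exon of the 9 genes in the 4 groups, on a log axis, as mean and SD of 2 libraries. Squares with solid lines are ligands and triangles with dashed lines are receptors; AXL fell from 128 with IFN-γ to 33.2 with both agents, and ERBB3 rose from 0.101 to 2.53.

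Within a gene, the 4 groups had the same order from high to low for EREG, HBEGF and EGFR, which was IFN-γ, untreated, both and AX-0085. AXL had this order as well. For AREG, TGFA and MET, IFN-γ and untreated also came first, but the 2 groups with AX-0085 overlapped for AREG and MET, and TGFA was lower with both than with AX-0085 alone. ERBB2 had the order AX-0085, both, untreated and IFN-γ, and ERBB3 the order both, AX-0085, untreated and IFN-γ.

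The other ligands of the family did not move as 1 group. Of 7 genes listed, 5 passed the filter, and EPGN and NRG3 had at most 8 counts in a library. With IFN-γ 2 were called higher (NRG1 and BTC) and 2 lower (NRG4 and EGF), and on addition of AX-0085 to IFN-γ 1 was called higher and 1 lower. NRG1 (neuregulin 1), which binds ERBB3, was at 193 and 192 CPM in untreated cells, 403 and 393 with IFN-γ, 64.4 and 71.4 with AX-0085, and 63.6 and 70.9 with both. It rose 2.07-fold with IFN-γ (1.05 ± 0.07, adjusted p = 1.11e-08) and fell 5.93-fold on addition of AX-0085 (-2.57 ± 0.07, adjusted p = 7.28e-12), in the direction opposite to ERBB3 in both comparisons. The rise of NRG1 lies close to the 2-fold limit. BTC (betacellulin), a ligand of EGFR and ERBB4, had 68 and 37 counts in the untreated libraries, 110 and 152 after IFN-γ, 120 and 140 with AX-0085 and 133 and 79 with both. Its log2 fold change was 1.64 ± 0.19 with IFN-γ (adjusted p = 4.57e-06) and 1.40 ± 0.19 with AX-0085 alone (adjusted p = 4.26e-05), so that it was called higher with either agent. EGF itself had 18 and 14 counts in the untreated libraries, 4 and 2 after IFN-γ, and 12 to 22 with AX-0085 alone. NRG4, which binds ERBB4, shares 38.2% of its exon bases with FBXO22 on the other strand, so that its 70 and 62 counts in the untreated libraries, 11 and 8 after IFN-γ and 108 and 63 after both are uncertain.

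GAS6, the ligand of AXL, moved by its counts against AXL on treatment with IFN-γ, with AX-0085 and on addition of AX-0085 to IFN-γ. GAS6 has 89.01% of its exon bases within the span of GAS6-AS1 on the other strand, so that its counts and this contrast are uncertain. It was at 4.73 and 4.64 CPM in untreated cells, 1.27 and 0.925 with IFN-γ, 10.3 and 9.94 with AX-0085, and 11.2 and 12.3 with both. PROS1 (protein S, a ligand of the related TYRO3 and MERTK) was at 17.8 and 16.8 CPM, 6.87 and 6.31, 45.3 and 44.5, and 31.8 and 30.4 in the same order. GAS6 fell with IFN-γ (-2.12 ± 0.19, adjusted p = 3.57e-07) and rose when AX-0085 was added to it (3.44 ± 0.17, adjusted p = 1.33e-09), and PROS1 likewise (-1.40 ± 0.09, adjusted p = 2.35e-08, and 2.24 ± 0.09, adjusted p = 2.32e-10). With AX-0085 alone both were called higher, GAS6 by 1.11 ± 0.12 (adjusted p = 7.44e-06) and PROS1 by 1.37 ± 0.08 (adjusted p = 1.34e-08). HGF, the MET ligand, had at most 6 counts in a library and was not tested. Of the genes that activate or hold back HGF, SPINT2, a protease inhibitor, was called lower with IFN-γ (-1.004 ± 0.09, adjusted p = 5.40e-07). This call sits at the 2-fold limit, and the untreated libraries of SPINT2 were at 106.4 and 134.8 CPM. SPINT1 had 12 counts in each untreated library and 0 in both IFN-γ libraries, and HGFAC had 0 and 1 counts without treatment and 26 and 14 with both agents.

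Of the close relatives of the receptors, TYRO3 fell with IFN-γ (-1.15 ± 0.10, adjusted p = 4.04e-07), from 25.7 and 25.9 CPM to 10.4 and 12.8. MST1R and MERTK were not called in any comparison, and ERBB4 had at most 6 counts in a library and was not tested. The 4 genes of ligand shedding, ADAM10, ADAM17, RHBDF1 and RHBDF2, were tested in full and 0 were called by edgeR in any of the 5 comparisons; by the adjusted p alone 1 was higher and 3 lower with IFN-γ, where 68.1% of all genes passed.

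Among the genes listed as negative regulators of these receptors, 7 of 9 were tested. With IFN-γ 3 were called higher and 0 lower, beside 10.3% and 17.2% of all genes. ERRFI1 (also known as MIG6), an inhibitor of the EGFR kinase, was at 140.0 and 151 CPM in untreated cells, 379 and 393 with IFN-γ, 188.5 and 187 with AX-0085 and 233 and 228 with both, and rose by 1.41 ± 0.06 with IFN-γ (adjusted p = 2.04e-10). LRIG3 and LRIG2, membrane proteins listed with LRIG1, rose by 1.25 ± 0.10 (adjusted p = 8.01e-08) and 1.102 ± 0.12 (adjusted p = 3.87e-06). Whether they restrain these receptors in A549 was not tested. LRIG1 was not called with IFN-γ (0.12 ± 0.16, adjusted p = 0.513). It shares 37.9% of its exon bases with SLC25A26 on the other strand, so that its counts are uncertain. On addition of AX-0085 to IFN-γ 0 of the 7 were called, and 5 were lower by the adjusted p alone, as were 32.8% of all genes, with a log2 fold change of -0.75 for ERRFI1. CBLB, a ubiquitin ligase of activated receptors, was called only for the interaction (-1.02 ± 0.12, adjusted p = 1.56e-05), with 0.89 for AX-0085 alone and -0.13 when it was added to IFN-γ. The CBLB call lies close to the 2-fold limit.

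Of the adaptors and RAS genes all 11 were tested, and few passed the 2-fold limit. By the adjusted p alone 5 were higher and 3 lower with IFN-γ, and 4 higher and 5 lower on addition of AX-0085 to it, where 68.1% and 66.5% of all genes passed. PLCG1 was the 1 called with IFN-γ, from 64.5 and 63.0 CPM to 29.3 and 28.9 (-1.13 ± 0.07, adjusted p = 1.70e-08). HRAS was the 1 called with AX-0085 alone, from 53.3 and 55.0 CPM to 28.7 and 25.4 (-1.002 ± 0.10, adjusted p = 2.16e-06), and with both agents (-1.03 ± 0.10, adjusted p = 1.34e-06). Both HRAS calls lie close to the 2-fold limit.

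Of the 49 other receptor tyrosine kinases, 29 were tested. With IFN-γ 3 were called higher and 12 lower, and on addition of AX-0085 to IFN-γ 9 were called higher and 4 lower, beside 10.3% and 17.2% of all genes with IFN-γ and 16.5% and 8.28% on addition. FGFR3, a fibroblast growth factor receptor, was at 10.4 and 11.2 CPM in untreated cells, 0.634 and 0.482 with IFN-γ, 26.1 and 28.5 with AX-0085, and 26.7 and 25.8 with both. Like ERBB3 it fell with IFN-γ (-4.29 ± 0.18, adjusted p = 2.00e-10) and rose on addition of AX-0085 (5.57 ± 0.16, adjusted p = 9.95e-12) and with AX-0085 alone (1.34 ± 0.09, adjusted p = 7.73e-08). PTK7, a pseudokinase of Wnt signaling, fell with IFN-γ (-4.15 ± 0.18, adjusted p = 3.31e-10) and rose on addition of AX-0085 (2.75 ± 0.20, adjusted p = 7.97e-08). Unlike FGFR3, PTK7 was lower with AX-0085 alone (8.64 and 9.03 CPM) and with both (5.40 and 6.70) than in untreated cells (15.0 and 16.8). DDR2, a collagen receptor, took the direction opposite to PTK7 with IFN-γ and on addition of AX-0085. It had 11 and 5 counts in the untreated libraries, 60 and 70 after IFN-γ and 6 and 9 after both. For EPHB6, 17 and 15 counts were found in the untreated libraries, 1 and 0 after IFN-γ and 16 and 18 with both. With AX-0085 alone 3 of the 29 were called higher and 3 lower (6.41% and 5.62% of all genes), and with both agents 1 was higher and 6 lower than in untreated cells (7.51% and 7.23%).

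The genes whose pattern was most like that of each member were taken by Pearson's r of log2 CPM over the 8 libraries, among about 10114 genes whose log2 CPM averaged 2 or more. The libraries are 4 groups of 2 and many genes follow the groups, so that r is a description. EREG was nearest to NBN (r = 0.9995) and CAPRIN1, AREG to HMGA1 (r = 0.9962), SLC35F2 and DNTTIP2, HBEGF to COIL (r = 0.9936), and TGFA to ZFP36L1 (r = 0.991), NTN4 and SPAG9. Among the receptors, EGFR was nearest to COL12A1 (r = 0.9994), USP31 and PPTC7, ERBB2 to TPCN1 (r = 0.9994), AMBP and CORO1B, ERBB3 to NOL4L (r = 0.9965) and ADAMTS15, and MET to YEATS4 (r = 0.9961), ASAP2 and ERI1. AXL was nearest to NUAK2 (r = 0.9988), IDH3A and EPHA2 (r = 0.9978), a receptor tyrosine kinase of the ephrin system. Between the 9 genes themselves, EREG and EGFR had r = 0.994, EREG and AREG r = 0.957, ERBB2 and ERBB3 r = 0.8999, and ERBB2 and EGFR r = -0.977 over the same 8 libraries.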

How the data were processed

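The data are 8 mRNA libraries of A549 cells, 2 in each of 4 groups. The authors demultiplexed with bcl2fastq 2.20, trimmed with Trim Galore 0.6.7, mapped to GRCh38 with STAR 2.7.9a, counted with featureCounts and deposited whole-number counts per gene, without normalization. The annotation release, the strand setting and the handling of reads that map to several places are not given in the sources used here; gene positions are from GENCODE 44. Reads shared with overlapping genes could therefore be counted differently.

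From the counts, genes were filtered (filterByExpr), scaled with TMM and tested with edgeR 4.0.16 (quasi-likelihood test, R 4.3.3, 8 libraries in 1 model of 4 groups), adjusted by Benjamini-Hochberg over 15066 genes. The 5 comparisons were IFN-γ, AX-0085 and both against untreated, both against IFN-γ, and the interaction. A change was called at an adjusted p under 0.05 and a fold change over 2. With 2 libraries per group the smallest two-sided exact permutation p is 0.333, so no such test was made. The depth was between 20672828 and 29978251 counts. Limits on low counts cover counting error only. The scripts were tested on simulated data. Alternatives were the DESeq2 1.42.0 Wald test, RLE size factors, library size alone, 2 other filters, a fit of the compared groups only, a call by adjusted p without the fold limit, a replicate block and leaving out each library.

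The genes and lists were chosen with earlier results of these data known. Named genes were the 9 members, of each pathway list up to 4 genes called in any comparison with the largest change against untreated cells, and for each member the 3 genes with the highest Pearson's r; some members of each set are not reported here, and the naming of other listed genes, given by counts, followed a look at their values.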

Additional observations from a re-analysis of the deposited data

Results flagged for a closer look

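For all 9 genes the log2 change by AX-0085 differed between cells with and without IFN-γ by the interaction term of edgeR's quasi-likelihood test. The term was 3.02 for ERBB3 (adjusted p = 1.31e-07) and 0.65 for ERBB2 (adjusted p = 2.76e-05). It was -1.79 for EREG (adjusted p = 2.32e-07), -1.19 for HBEGF (adjusted p = 0.0344), -1.10 for TGFA (adjusted p = 9.09e-06), -0.98 for AREG (adjusted p = 9.08e-06), -0.67 for EGFR (adjusted p = 0.000141), -0.36 for MET (adjusted p = 0.00506) and -0.33 for AXL (adjusted p = 0.00327). The adjusted p exceeded 0.05 under some alternatives for HBEGF (up to 0.642), MET (0.0670 with library size alone) and AXL (0.0522 with library size alone). Of all genes tested, 50.3% had an interaction term with an adjusted p under 0.05, so that such a difference was common. Groups of 2 libraries are too small for a test of single libraries that stand apart.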

How the results depend on the processing

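Of 666 values of single genes under the alternatives, 633 kept their direction and their side of the call threshold (adjusted p and 2-fold limit together), 15 passed it newly, 17 fell short of it, and 1 changed sign, which was EGFR with both agents against untreated cells without the first untreated library (0.016, the range over single libraries left out being -0.16 to 0.016). With IFN-γ, the number of genes called lower was 1 in place of 2 with DESeq2, with RLE size factors and with only the groups compared, and between 1 and 2 when single libraries were left out, because ERBB2 came to between -0.98 and -0.997. With the adjusted p alone, the numbers were 7 higher with IFN-γ, 2 higher and 6 lower with AX-0085, 2 higher and 5 lower with both, and 2 higher and 7 lower for the interaction. With library size alone, 1 gene was called lower for the interaction, as TGFA and HBEGF lost their calls, and the adjusted p of MET and AXL was above 0.05. That scaling moved the median of all genes from -0.06 to -0.18 with IFN-γ, from 0.03 to 0.16 on addition of AX-0085 and from 0.05 to 0.17 for the interaction.

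The deviations from the group means correlated, between libraries of equal replicate number, only from -0.0738 to 0.0444. No shared deviation by replicate number was thus seen. Whether the libraries were paired by design cannot be told from such low correlations. With the replicate number as a block, no call among the 9 genes changed (for ERBB3 the change on addition of AX-0085 was 4.65), and over all genes 1537 were called higher and 2561 lower with IFN-γ, against 1547 and 2590 without the block.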
